A study of Mus musculus with 12 samples.

Results

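Axon guidance ligands and receptors were examined for the histone variant H2A.Z at their start sites in nucleus accumbens tissue of the mouse, a part of the ventral striatum that serves reward. The genes were chosen by name: semaphorins (Sema3 to Sema7 genes), plexins, neuropilins, ephrins, Eph receptors, Slits, Robos, netrins, Unc5 genes and Dcc, each with a peak whose middle lay within 1000 bp of the assigned start site (called a promoter peak). The pattern matched 69 protein-coding genes in RefSeq, of which 60 had a promoter peak in at least 1 list, among 14993 genes with one in all. Netrin-G genes did not match it and were counted with related genes below.

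The study profiled H2A.Z by chromatin immunoprecipitation and sequencing in 12 samples, 3 for each of 4 conditions. Controls received saline in both phases (SS), and the others received cocaine in the last phase alone (SC, labelled acute), in the first alone (CS, labelled withdrawal) or in both (CC, labelled challenge). The sources used here do not give strain, sex, age, cocaine dose or the intervals, or say whether animals were pooled, and the total histone H3 libraries of the design were not analysed here. Each condition has 1 deposited peak list and no values per sample, so replicate error cannot be given, no difference was tested, and intervals cover the counting of genes only. The SS, SC, CS and CC lists held 24655, 23170, 6417 and 4827 peaks, with median widths of 734, 727, 110 and 107 bp, and the length and peak width of the lists moved with cocaine history. Their part in the results was not tested. Cell type markers were counted at start sites only: of 12 medium spiny neuron markers 10 had a promoter peak in SS, 8 in SC and 0 in CS or CC. The counts in SS, SC, CS and CC were 4, 3, 0 and 0 of 7 astrocyte markers, 2, 2, 0 and 1 of 7 oligodendrocyte markers, 4, 3, 2 and 0 of 6 endothelial markers, and 0 of 6 microglial markers in every list. Of all RefSeq protein-coding genes, 53.4, 50.9, 17.2 and 13.5% had a promoter peak in SS, SC, CS and CC. The marker counts therefore do not show which cell types the samples held. The tissue holds many cell types, and fewer cells carrying H2A.Z at a gene cannot be told apart from less H2A.Z per cell. Sequencing depth was not analysed here, and its part cannot be told apart from these.

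Growing axons are steered by these proteins. Semaphorins act through plexins, with neuropilins as co-receptors for the secreted class 3 members. Ephrins bind Eph receptor tyrosine kinases and can signal in both directions. Slits repel axons through Robo receptors, and netrins attract through Dcc or repel through Unc5 receptors. In the adult striatum several of these families are known for roles at synapses. H2A.Z replaces H2A in nucleosomes around start sites, above all at promoters rich in CG dinucleotides.

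The narrow peaks of CS and CC can be seen on the sequence itself. Shown first are the 5 guidance genes whose CS or CC peak overlapped the RefSeq start window (250 bases before to 50 bases after the start, GRCm38.p6, the same assembly as mm10). Each line gives the 250 bases before the start, 5′ to 3′ on the gene's strand, and capitals mark the bases under the CS peak (Ephb6, Epha3, Slit3) or the CC peak (Efna1, Efna2). Whether the starts in the lists count from 0 or 1 is not stated, so the edge at the peak's lower coordinate may be off by 1 base.
Ephb6: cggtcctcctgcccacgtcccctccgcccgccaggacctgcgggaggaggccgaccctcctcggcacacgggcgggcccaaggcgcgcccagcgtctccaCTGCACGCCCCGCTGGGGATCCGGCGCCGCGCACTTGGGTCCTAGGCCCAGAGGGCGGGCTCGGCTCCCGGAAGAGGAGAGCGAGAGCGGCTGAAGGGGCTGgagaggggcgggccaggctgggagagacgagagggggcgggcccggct
Epha3: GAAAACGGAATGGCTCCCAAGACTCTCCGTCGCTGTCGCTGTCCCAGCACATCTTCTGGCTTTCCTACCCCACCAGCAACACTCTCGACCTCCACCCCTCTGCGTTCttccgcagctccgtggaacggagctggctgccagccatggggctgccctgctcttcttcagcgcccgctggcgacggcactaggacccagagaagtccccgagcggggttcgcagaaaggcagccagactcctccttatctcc
Slit3: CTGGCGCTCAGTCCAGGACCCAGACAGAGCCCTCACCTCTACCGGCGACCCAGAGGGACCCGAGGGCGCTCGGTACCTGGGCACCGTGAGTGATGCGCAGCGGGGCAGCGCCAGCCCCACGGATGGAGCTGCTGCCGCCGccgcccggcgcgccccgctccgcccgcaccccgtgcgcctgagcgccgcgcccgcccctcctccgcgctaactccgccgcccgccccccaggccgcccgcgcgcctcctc
Efna1: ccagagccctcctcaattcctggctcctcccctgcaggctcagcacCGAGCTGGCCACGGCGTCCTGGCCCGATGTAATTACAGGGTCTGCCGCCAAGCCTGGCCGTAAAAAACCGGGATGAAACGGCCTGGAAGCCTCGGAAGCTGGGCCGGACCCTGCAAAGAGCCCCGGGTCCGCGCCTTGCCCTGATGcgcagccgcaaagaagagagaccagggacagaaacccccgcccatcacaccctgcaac
Efna2: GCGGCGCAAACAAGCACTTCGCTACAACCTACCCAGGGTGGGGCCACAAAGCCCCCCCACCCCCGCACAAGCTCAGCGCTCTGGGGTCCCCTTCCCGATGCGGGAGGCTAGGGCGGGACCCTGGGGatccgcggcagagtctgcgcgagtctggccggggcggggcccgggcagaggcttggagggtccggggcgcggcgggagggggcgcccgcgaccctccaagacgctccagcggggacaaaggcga
The lines lie at chr6:41605261-41605510 (plus strand), chr16:63864176-63864425 (minus strand), chr11:35121206-35121455 (plus strand), chr3:89280952-89281201 (minus strand) and chr10:80179232-80179481 (plus strand). At Ephb6, a kinase-inactive Eph receptor gene, the CS peak covered 102 of the 250 bases and 11 of their 27 CG dinucleotides. At Efna1, an ephrin gene, the CC peak covered 146 bases and 13 of 16. The peak took in 6 of 16 at Epha3, 13 of 35 at Slit3 and 8 of 25 at Efna2. In SS each of these genes had a peak 679 to 1551 bp wide at the same place.

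Saline animals carried H2A.Z at most guidance genes. SS promoter peaks were found at 59 of the 69 genes (85.5%, 95% exact interval 75.0 to 92.8%), where 53.4% of all RefSeq protein-coding genes had one. In SC the count was 57 (82.6%, against 50.9%), in CS 9 (13.0%, against 17.2%) and in CC 10 (14.5%, against 13.5%). By pattern, 41 genes had promoter peaks in SS and SC only, 5 in SS, SC and CS, 6 in SS, SC and CC, 4 in all 4 lists, 3 in SS only, 1 in SC only and 9 in none. No guidance gene had one in CS or CC without SS and SC. Over all genes, 90.6% of CS and 90.9% of CC promoter genes had one in SS, and 88.1% and 88.8% in SC.

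**Figure D1:**
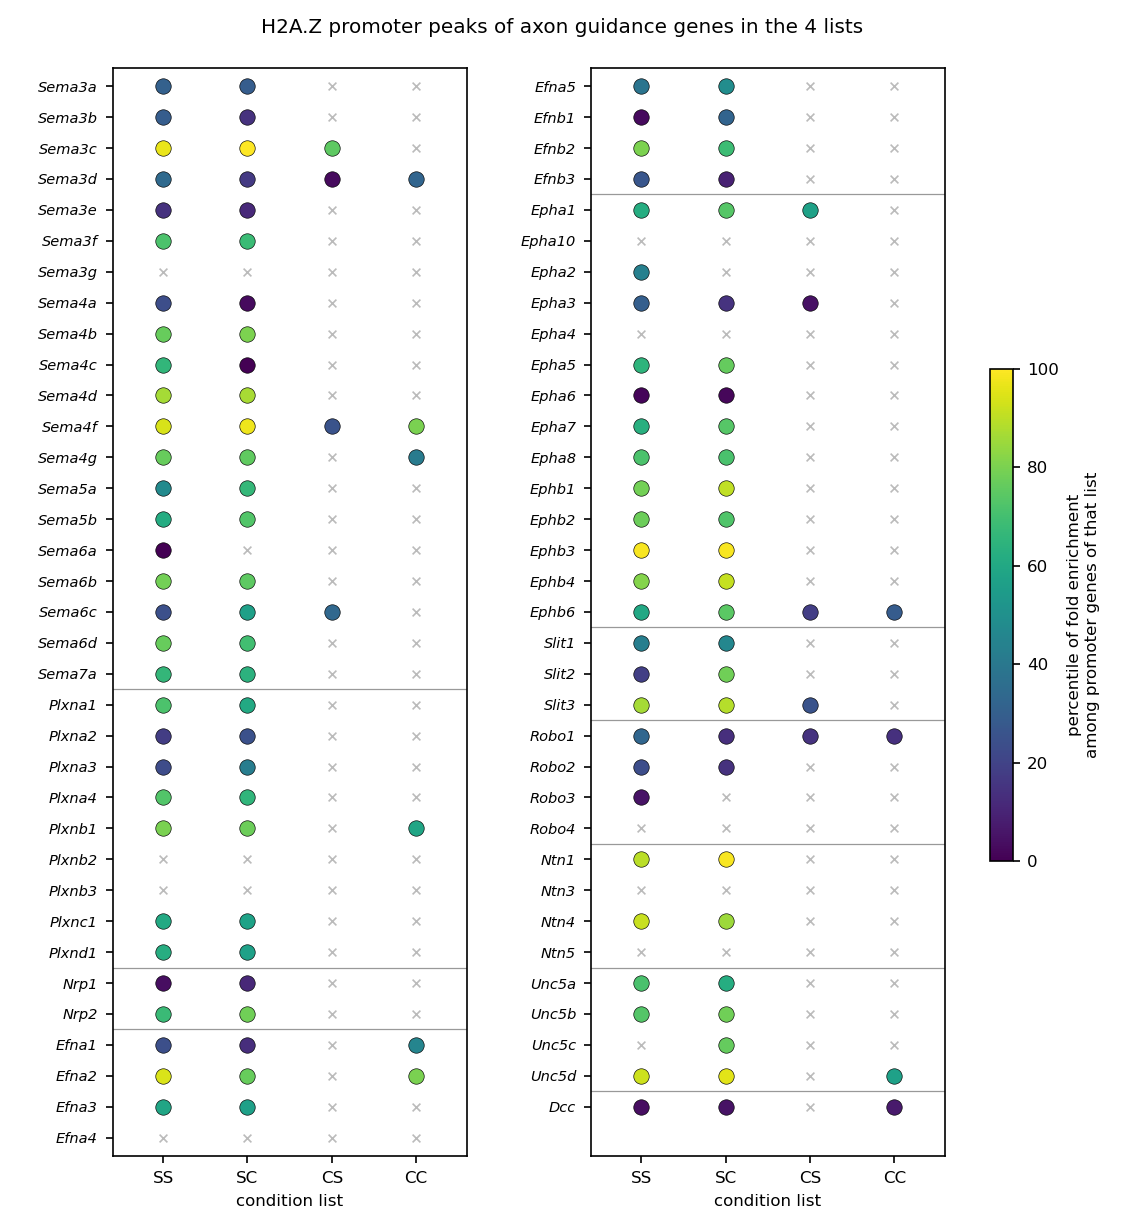
Each row is 1 of the 69 guidance genes, grouped by family, and each column a condition list. Filled circles mark a promoter peak, coloured by the percentile of the gene's highest fold enrichment among all promoter genes of that list; crosses mark none. The SS and SC columns are filled for 59 and 57 genes, the CS and CC columns for 9 and 10.

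Among ligands, 19 of 20 semaphorin genes had an SS promoter peak, with fold enrichments over background (the authors' value for each peak) from 2.40 to 11.8, as had 7 of 8 ephrin genes (2.999 to 11.3), all 3 Slit genes (4.03 to 10.1) and 2 of 4 netrin genes (Ntn1 10.5, Ntn4 10.8). Among receptors, 12 of 14 Eph genes (2.84 to 12.9), 7 of 9 plexin genes (3.99 to 9.30), both neuropilin genes (3.12 and 7.70), 3 of 4 Robo genes (3.20 to 4.72), 3 of 4 Unc5 genes (8.21 to 10.9) and Dcc (3.13) had one. Robo and Dcc peaks were thus in the lower part of the SS list, and netrin and Unc5 peaks in its upper part: the median percentile among SS promoter genes was 23.2 for Robo genes, 90.6 for netrin genes and 73.4 for Unc5 genes. The netrin value rests on 2 genes and on each gene's highest peak. That of Ntn1 (chromosome 11, 68399401 to 68400600) lay outside the RefSeq gene, at another start. The Ntn1 peak over the RefSeq start (68385796 to 68387272) had 7.04. Over all 59 genes the median fold enrichment was 6.89 in SS, against 5.65 over all SS promoter genes. The median SS width was 1002 bp, against 1005 bp.

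The strongest SS peak belonged to Ephb3, a receptor for B-class ephrins, with a fold enrichment of 12.9 in SS and 16.0 in SC and no promoter peak in CS or CC. It lay 397 bp downstream of the start (chromosome 16, 21204769 to 21205535), and a weaker peak (4.93) stood at another Ephb3 start. Sema3c, a secreted semaphorin, followed with 11.8 in SS, 17.3 in SC and 5.17 in CS. Efna2 had 11.3, 11.2 and, in CC, 5.44. Sema4f, a transmembrane semaphorin, was present in all lists at 11.2 (SS), 14.9 (SC), 4.35 (CS) and 5.44 (CC). These values rank peaks within 1 list and measure no change between lists, which differ in background. Next came Unc5d (10.9), Ntn4 (10.8), Ntn1 (10.5), Slit3 (10.1), Sema4d (10.1, the ligand of Plxnb1) and Ephb4 (9.48), a vascular ephrin-B2 receptor. Of these 10 strongest genes, Sema3c, Efna2, Sema4f, Unc5d and Slit3 had a promoter peak in CS or CC and the others had none. Over all SS promoter genes, of any strength, 39.4% had a promoter peak in CS or CC. The share in either list among genes as strong in SS was not counted.

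SC was compared with SS first, for cocaine without a history. Of the 59 SS genes 56 were held in SC, meaning that a promoter peak of the same gene name stood in both (94.9%, 85.9 to 98.9%; 88.2% over all SS promoter genes). Among all genes of the same SS strength the share was 90.2%. The 3 not held were Epha2 (SS 5.22, chromosome 4, 141301152 to 141301731), Robo3, a Robo of commissural axons (3.20), and Sema6a (2.40). No SC peak of any name overlapped those 3 peaks. A separate Robo3 peak, downstream of another start, stood in both lists (1507 bp and 4.64 in SS, 1453 bp and 3.98 in SC). In the other direction 56 of 57 SC genes were held in SS (92.6% over all genes).

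The exception was Unc5c, a netrin receptor gene, and it was one of naming. Its SC peak (fold enrichment 11.1, chromosome 3, 141464712 to 141465616) overlapped an SS peak of 8.15 (141464751 to 141465884) that the authors assigned to the neighbouring Gm15688. Sema4c showed the same effect: its percentile fell from 65.6 in SS to 0.251 in SC by name, because only its weaker peak (2.42) kept the name, while an SC peak of 9.32 over the main start was assigned to D430040D24Rik. Slit2 changed its rank, at the same position and without a change of name. Its strongest promoter peak was 4.03 in SS (percentile 18.4; chromosome 5, 47982750 to 47983681) and 11.4 in SC (percentile 78.3; 47982740 to 47983488). Sema6c (4.34 in SS, 7.69 in SC) and the X-linked Efnb1 (2.999, 5.14) also moved up by over 25 percentile points. These 4 genes, Sema4c included, were 7.14% of the 56 shared genes, against 6.49% of all shared genes, and Spearman's rho between SS and SC fold enrichment was 0.834 over the 56 genes and 0.894 over all 11987. Points share their list and its background estimate, so both are descriptions.

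**Figure D2:**
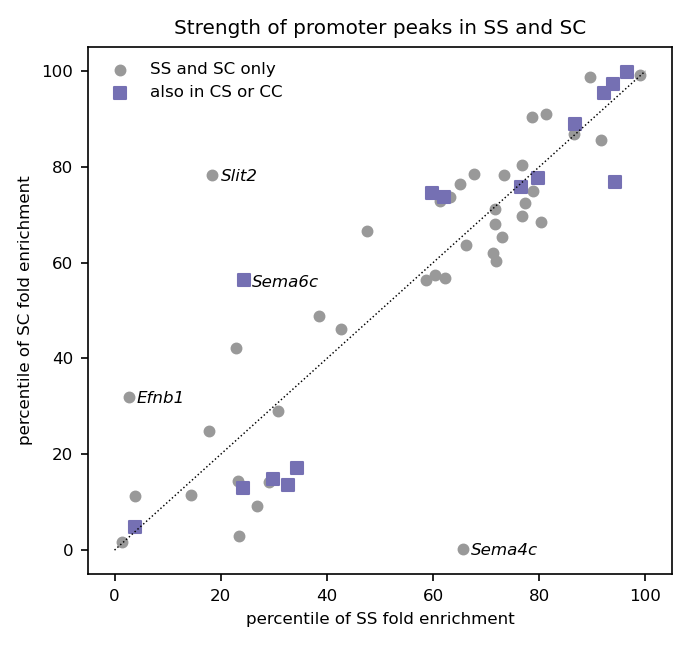
Each point is 1 of the 56 guidance genes with promoter peaks in SS and SC, placed by the percentile of its fold enrichment among promoter genes of SS (x axis) and SC (y axis); the dotted line marks equal percentiles. Squares mark genes that also had a peak in CS or CC. Slit2, Sema6c and Efnb1 lie far above the line and Sema4c far below it.

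Next, CS was set against SS, for animals with past cocaine that last received saline. Of the 59 SS genes 9 were held (15.3%, 7.22 to 26.99%), where 28.8% of all SS promoter genes were and 27.4% of genes with the same SS strength. They were the semaphorin genes Sema3c, Sema3d, Sema4f and Sema6c, the Eph receptor genes Epha1, Epha3 and Ephb6, Slit3 and the Slit receptor gene Robo1. No ephrin (0 of 7), plexin (0 of 7), neuropilin, netrin or Unc5 gene was held. By role, 5 of 31 ligand genes and 4 of 28 receptor genes were. The 9 were not the strongest SS genes: dividing all SS promoter genes into 5 equal groups from weak to strong, 0 of 9, 4 of 12, 1 of 5, 1 of 22 and 3 of 11 guidance genes were held, against 10.6%, 31.9%, 44.6%, 26.4% and 30.7% of all genes. The fourth group, with SS folds of 6.56 to 9.32, held 22 guidance genes, among them Plxna1, Nrp2, Unc5b and Ephb2, and only Epha1 of them had a CS promoter peak. Against SC, the same 9 genes were held (of 57; 29.4% over all SC promoter genes). In reverse, all 9 CS genes had promoter peaks in SS (90.6% over all CS promoter genes) and in SC (88.1%).

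The CS peaks of the 5 genes absent from CC differed in rank. Sema3c was in the upper part of SS, SC and CS, at percentiles of 96.6, 99.9 and 75.2. Slit3, a Slit gene, had a fold enrichment of 10.1 in SS, 12.9 in SC and 4.35 in CS, and its percentile was 86.7, 88.9 and 25.7. Epha1 had 6.86, 10.7 and 4.85. Sema6c, whose SS peak was the widest of the guidance genes (1839 bp), had 4.34, 7.69 and 4.46, with a CS peak of 69 bp. Epha3, an ephrin-A receptor, had 4.58, 3.98 and 3.91 and lay low in every list, at percentiles of 29.9, 14.8 and 4.39. Strong and weak SS peaks thus both occurred among the genes present in CS.

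CC was then set against SS, for animals given cocaine again. Here 10 genes were held (16.9%, 8.44 to 29.0%; 22.7% over all genes and 21.7% at the same strength): Sema3d, Sema4f and Sema4g, the ephrin genes Efna1 and Efna2, the plexin gene Plxnb1, Ephb6, Robo1 and the netrin receptor genes Unc5d and Dcc. Against SC the 10 were again all held (of 57; 23.3% over all genes), and all 10 CC genes had promoter peaks in SS (90.9% over all CC promoter genes) and SC (88.8%). In CS or CC together 15 of the 59 genes had a promoter peak (25.4%, 15.0 to 38.4%; 39.4% over all genes), and 41 had one in SC and in neither (69.5%, 56.1 to 80.8%; 51.0%).

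The 6 genes present in CC and absent from CS were likewise mixed. Unc5d, a netrin receptor, had a fold enrichment of 10.9 in SS, 14.2 in SC and 5.00 in CC, and Plxnb1, the Sema4d receptor, 9.30, 11.3 and 5.05. Sema4g had 8.90 and 11.0, and 2 separate peaks in CC. Efna2 ranked high in all 3 lists, at percentiles of 94.3, 76.8 and 79.8. Efna1 had 4.33, 3.84 and 4.74. Dcc, the attractive netrin receptor, was near the bottom of each, at 3.13, 3.20 and 4.03 and percentiles of 3.90, 4.76 and 6.64.

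**Figure D3:**
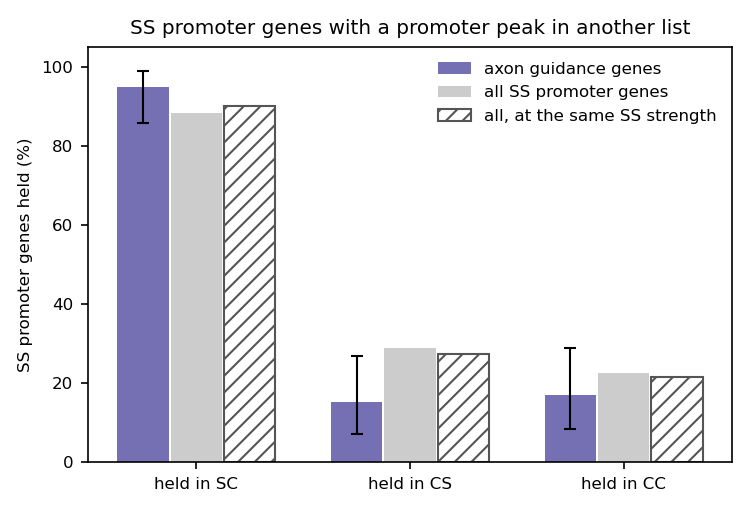
Bars give the percentage of SS promoter genes held in SC, CS or CC, for the 59 guidance genes (purple, with 95% exact binomial intervals that cover counting only), for all SS promoter genes (grey) and for all genes weighted to the guidance genes' SS strength groups (hatched). The guidance bar stands at 94.9% in SC, 15.3% in CS and 16.9% in CC.

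CS and CC were compared for animals with the same cocaine history and a different last treatment. Ephb6, Robo1, Sema3d and Sema4f had promoter peaks in both, which is 4 of the 9 CS genes (41.2% over all CS promoter genes) and 4 of the 10 CC genes (52.4%). These 4 were also the only guidance genes in all 4 lists (6.78% of the 59; 11.7% over all genes). At Ephb6 the values were 6.53 (SS), 10.9 (SC), 4.26 (CS) and 4.52 (CC). At Robo1 it was 4.72, 3.88, 4.13 and 4.27, and at Sema3d 4.80, 4.15, 3.77 and 4.59. Robo1 and Sema3d stood at a percentile of 34.3 or lower in every list.

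The CS and CC peaks of these 4 genes did not mark the same bases. At Sema4f the CS peak spanned 82939532 to 82939693 on chromosome 6 and the CC peak 82939322 to 82939448, with 84 bp between them. The gap was 31 bp at Sema3d and 133 bp at Ephb6, and at Robo1 the peaks shared 2 bp. So 1 of 4 guidance genes had overlapping CS and CC promoter peaks, where 59.8% of the 1778 genes with both had. All 10 CS and 11 CC promoter peaks of guidance genes lay wholly inside an SS promoter peak of the same gene, as 93.9% and 95.1% of all CS and CC promoter peaks lay inside some SS peak.

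They covered a small part of it: 3.75 to 20.4% of the SS width in CS and 6.37 to 22.6% in CC. Widths were 69 to 177 bp in CS and 67 to 206 bp in CC. The median over the guidance genes was 114 bp in CS and 122.5 bp in CC, beside 112 and 109 bp over all promoter genes of those lists. None of the 21 reached a −log10 q of 5, which 14.9% of all CS and 15.7% of all CC promoter genes did. The lowest q-value was 3.67e-05 in CS (Sema3c) and 6.52e-05 in CC (Efna2 and Sema4f). All 59 SS and 57 SC guidance genes reached it, as did 99.5% and 99.6% of all promoter genes there. Many CS and CC peaks of the lists had identical fold and q-values, such as Slit3 and Sema4f in CS (4.35, q-value 0.00422). This held for 8 of 10 CS and 9 of 11 CC guidance peaks, and for 93.0% and 92.0% of all promoter peaks of those lists, against 46.1% in SS and 29.7% in SC.

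**Figure D4:**
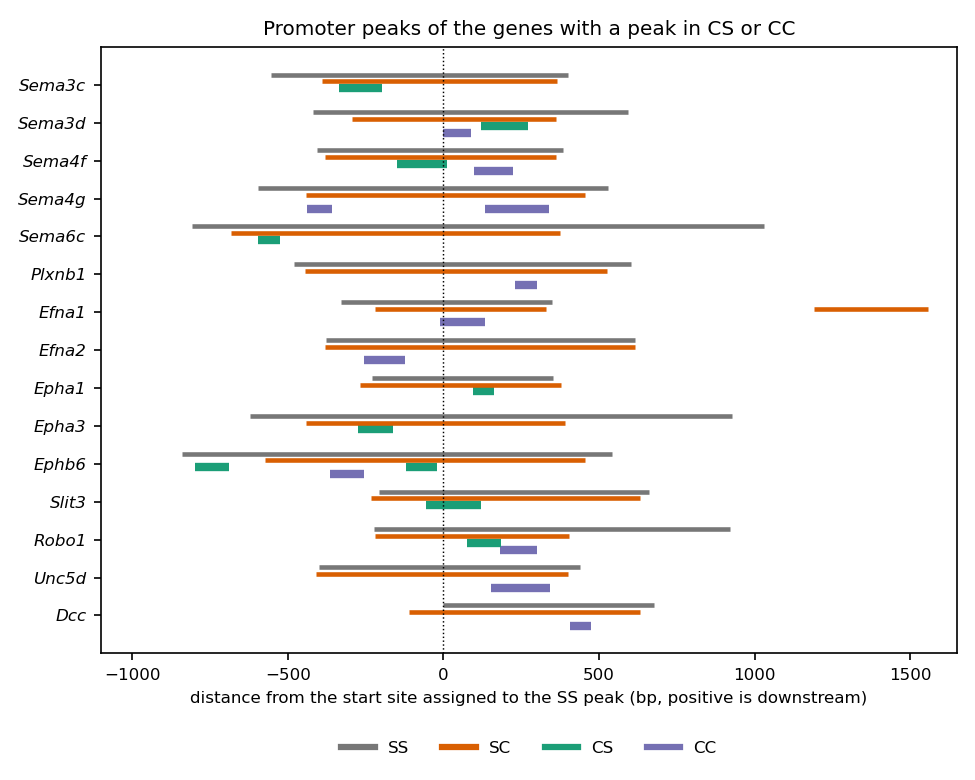
Promoter peaks of the 15 guidance genes with a peak in CS or CC, drawn to scale against the start site assigned to the gene's strongest SS peak (x axis, bp, downstream positive); bars span each peak in SS, SC, CS and CC. The SC bar of Efna1 at the right belongs to another start, and a second Slit3 peak in SC at a distant start lies outside the axis. The short CS and CC bars lie inside the SS bars, and at Sema3d, Sema4f and Ephb6 they do not overlap each other.

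The 9 genes without a promoter peak by name were Efna4, Epha4, Epha10, Ntn3, Ntn5, Plxnb2, Plxnb3, Robo4 and Sema3g. A peak stood at some of them under another name or outside the limit. The start of Plxnb2, a receptor for class 4 semaphorins, was covered by a strong peak in SS (11.1, chromosome 15, 89180242 to 89181284) and SC (12.01) that was assigned to no gene. At Efna4 a peak of 6.21 in SS and 11.0 in SC was assigned to 4731419I09Rik, and at Ntn3 a peak of 5.89 and 6.82 to Tbc1d24. The SS peak of Epha10 (3.87) covered the RefSeq start but lay 1139 bp from the assigned one. At Ntn5 peaks stood upstream of the start in SS (-1373 bp, 5.05), SC (-1334 bp, 6.73) and CC (-1200 bp, 4.84), past the limit. Between 1 and 3 kb from a start lay 12 of 112, 10 of 98, 0 of 12 and 1 of 16 guidance gene peaks of the SS, SC, CS and CC lists. The share over all genes at that distance was not counted, and the lists differ in length. The farthest peaks inside were those of Sema6a (877 bp, SS) and Ntn1 (869 bp, SC), and the nearest outside was a Robo2 peak in SS, at -1036 bp. Counted by a peak of any name over any RefSeq start window of the gene, 50 of the 59 guidance genes with a window were marked in SS (84.7%; 56.2% over all), 46 in SC (77.97%; 53.4%), 3 in CS (5.08%; 7.24%) and 2 in CC (3.39%; 5.07%). Of the 50, 46 were also marked in SC (91.5% over all), 3 in CS (12.8%) and 2 in CC (8.98%). This count needs no assigned name but reads 300 bases only, so narrow peaks farther from the start drop out.

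By gene, an SS peak over any RefSeq start window went with the CG content of the gene's richest window. The richest windows of guidance genes held a median of 23 CG dinucleotides, against 15 over all protein-coding genes. Of 8 guidance genes with 0 to 9, 2 had an SS peak over a window (10.5% over all genes with as many). With 10 to 19 it was 16 of 18 (77.0%), with 20 to 29 14 of 15 (89.7%), and with 30 or more all 18 (96.8%). Sema3a and Sema4d, in the group with 0 to 9, had SS promoter peaks by name (4.63 and 10.1) that lay outside their windows. CG content under those 2 peaks was not counted. Of the 15 genes with a CS or CC promoter peak, 13 had a RefSeq window, with a median of 23 and a range of 7 to 42. Of the 41 with SS and SC only, 34 had a window, with 24.5 and 2 to 56, so the groups overlapped over most of their range. Shown for contrast, with CG in capitals, are the 250 bases before the start of Unc5c (marked in SS and SC), of Ephb4 (strong in SS and SC, none in CS or CC), and of Robo4 and Sema3g, whose windows were overlapped in no list.
Unc5c: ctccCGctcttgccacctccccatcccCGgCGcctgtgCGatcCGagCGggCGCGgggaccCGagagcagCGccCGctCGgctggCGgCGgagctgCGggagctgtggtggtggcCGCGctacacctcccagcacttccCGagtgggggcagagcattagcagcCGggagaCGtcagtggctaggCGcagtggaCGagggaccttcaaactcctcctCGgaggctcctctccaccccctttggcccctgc
Ephb4: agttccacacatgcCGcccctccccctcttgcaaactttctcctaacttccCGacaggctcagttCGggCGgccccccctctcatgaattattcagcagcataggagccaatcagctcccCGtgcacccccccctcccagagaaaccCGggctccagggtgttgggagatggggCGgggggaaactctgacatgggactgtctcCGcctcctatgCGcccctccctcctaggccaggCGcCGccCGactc
Robo4: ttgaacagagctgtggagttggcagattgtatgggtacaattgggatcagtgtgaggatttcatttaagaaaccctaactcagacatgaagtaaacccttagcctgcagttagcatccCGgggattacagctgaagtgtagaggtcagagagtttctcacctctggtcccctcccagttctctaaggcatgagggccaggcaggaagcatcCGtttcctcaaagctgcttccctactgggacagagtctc
Sema3g: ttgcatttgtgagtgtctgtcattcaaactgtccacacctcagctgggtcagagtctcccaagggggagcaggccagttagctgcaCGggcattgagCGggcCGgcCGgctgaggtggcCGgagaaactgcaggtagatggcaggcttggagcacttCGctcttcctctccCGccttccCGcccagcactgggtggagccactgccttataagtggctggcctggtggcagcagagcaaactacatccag
They lie at chr3:141465314-141465563, chr5:137349859-137350108, chr9:37401722-37401971 and chr14:31217623-31217872, all on the plus strand, and hold 23, 12, 2 and 8 CG dinucleotides. The SS peak of Ephb4 began at 137350074, so most of its printed bases lie upstream of the peak. The SC peak of Ephb4 began at 137350143, past the last printed base.

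**Figure D5:**
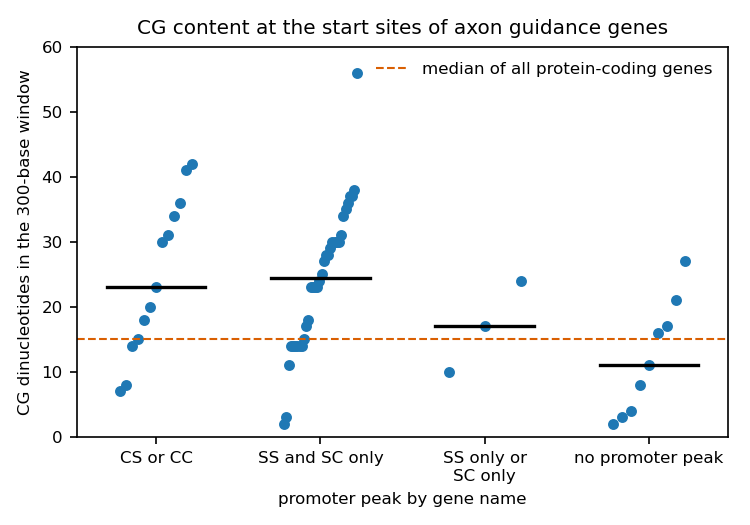
Points are the 59 guidance genes with a RefSeq window, placed by their number of CG dinucleotides in 300 bases (the richest window of each gene) and by promoter peak pattern, sorted within a group; black lines are medians and the dashed line is the median of all protein-coding genes, 15. Genes without a promoter peak by name have a median of 11 and the genes with a CS or CC peak 23.

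Each motif was searched on both strands of every window of a gene. The GC box CCCGCCC, which includes a CG itself, was found in 40 of 59 guidance genes (67.8%; 36.9% over all protein-coding genes), the CRE core TGACG in 10 (16.9%; 26.2%) and TATAAA in 2, Efnb2 and Slit2 (3.39%; 14.8%). Among genes with a RefSeq window, 8 of 13 with a CS or CC promoter peak had the GC box, and 26 of 34 with SS and SC only. A match is a run of letters and not a bound site.

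Away from promoters, guidance genes carried further peaks. In SS 43 of their 112 peaks (38.4%) lay farther than 1000 bp from the assigned start, against 20.5% of all peaks with a gene, and in SC 34 of 98 (34.7%, against 22.5%). In CS it was 2 of 12 (16.7%, against 9.23%) and in CC 5 of 16 (31.25%, against 8.78%). Gene length was not taken into account. Unc5a, a netrin receptor gene, had its strongest peak 6784 bp downstream of the assigned start (11.0 in SS, 12.2 in SC; chromosome 13, 54955843 to 54956548 in SS), above its promoter peak (8.21 and 8.96). Epha3 had peaks 6568 to 6895 bp inside the gene in all 4 lists (SS 5.61, SC 5.19, CS 4.10, CC 5.35 and 4.71), and Efna2 had peaks just past its annotated end (80190010 on chromosome 10), starting at 80190280 in SS (5.63), 80190313 in SC (4.24) and 80190864 in CC (5.44). Efna5, an ephrin gene with promoter peaks in SS (5.00) and SC (6.44) only, had the strongest guidance gene peak of both CS and CC, 143560 bp inside the gene. It spanned 62737544 to 62737624 on chromosome 17 in CS (9.37, percentile 98.0 of that list) and 62737546 to 62737622 in CC (9.43, percentile 97.5). No SS peak of any name and no SC peak assigned to Efna5 overlapped it.

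Genes working with these families were counted in 2 lists. Of 33 other guidance cues and receptors found in RefSeq, 27 had an SS promoter peak (53.4% over all protein-coding genes). Of the 27, 24 were held in SC (88.2% over all SS promoter genes), 0 in CS (28.8%) and 3 in CC (22.7%): the adhesion gene Nrcam (7.48 in SS, 5.47 in CC), the netrin-G gene Ntng1 (8.56, 4.12) and the Wnt receptor gene Ror1 (11.5, 4.71). The strongest in SS were Ror1, Ptprs (11.1), Met (10.9), Ror2 (9.93) and Ptprd (9.68). Of 58 genes of signalling inside the cell, 54 had an SS promoter peak (53.4% over all), led by the kinase gene Pak2 (12.9), Rhoa (12.4), Ablim1 (12.4), Farp2 (12.04) and Mical3 (11.9), and 52 of them were held in SC (88.2% over all). Held in CS were 5 of the 54 (28.8% over all genes): the kinase genes Abl1, Src and Limk2, the exchange factor gene Dock1 and Ablim1. Held in CC were 14 (22.7%): Abl1, Ablim1, Dock1 and Src again, with Arhgap39, Dpysl3, Kalrn, Mical2, Myo10, Pak1, Pak2, Rac1, Vav2 and Vav3. Dock3 had a CC promoter peak (5.23) and none in the other lists. Of these 58 signalling genes 15 had a CC and 5 a CS promoter peak, where 13.5% and 17.2% of all protein-coding genes had one. This difference was not tested.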

How the data were processed

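H2A.Z was profiled in 12 nucleus accumbens samples, 3 per condition, and 4 deposited peak lists, 1 per condition, were analysed. Per the submitters' processing notes, the build was mm10 and MACS2, SAMtools, HISAT and cutadapt were used; their versions and settings, and whether samples were pooled, are not stated in the sources used here. Per the file headers, the authors gave each peak a fold enrichment (a ratio over background), a linear q-value, an assigned gene and a distance. Sequencing depth was not analysed here, and no column belonged to other samples. Start windows came from RefSeq GRCm38.p6: 59 of the 69 genes matched, and 89.2% of all gene names in the lists matched a RefSeq symbol. Promoter genes were compared by name, and overlaps counted from 1 bp. Shares over all promoter genes of a list count every gene name, protein-coding or not. In SS these were 13585 names, of which 11699 were RefSeq protein-coding genes. For shares at the same SS strength, all SS promoter genes were split into 5 groups by fold enrichment and weighted by the guidance genes in each. Intervals are exact binomial (Clopper-Pearson, 95%, scipy 1.17.1). Counting was tested on simulated lists. Named genes follow a rule: every member with a CS or CC promoter peak or with one in only SS or SC, the 10 strongest in SS, genes without a peak, those at the distance limit, and, of the related lists, the 5 strongest in SS and those held in CS or CC. Genes that changed percentile, peaks of other names and peaks inside genes were chosen after their values were seen. The members and lists were chosen with earlier results of these data known. Alternatives were windows of 500 and 3000 bp, only peaks with −log10 q of at least 5, lists of equal length, and overlap in place of names.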

Additional observations from a re-analysis of the deposited data

How the results depend on the processing

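No paired analysis was possible because the 3 samples of a condition share 1 peak list, whose columns carry no replicate; no replicate could be left out for the same reason. The difference between guidance genes and all genes in the share of SS promoter genes held was 0.481 to 7.49 percentage points in SC under every alternative, the RefSeq window (added after seeing the data) included. Leaving out the q-value limit, under which no guidance gene was held and the sign was fixed, it was -14.9 to -6.82 in CS and -6.87 to -3.08 in CC. Counts of guidance genes were within 1.5 times of those reported with windows of 500 and 3000 bp. With −log10 q of at least 5 in every list, 0 guidance genes had a promoter peak in CS, 0 in CC and 0 in all 4 lists, and of the SS and SC genes 0 were held in CS or CC, so the share of CS genes held in CC could not be computed. With lists of equal length (4827 strongest peaks), promoter peaks numbered 25 in SS, 30 in SC and 5 in CS; of the 25 SS genes 22 were held in SC, 3 in CS and 5 in CC, of the 30 SC genes 6 in CC, of the 5 CS genes 1 in CC, and 1 gene was in all 4 lists. Of the 9 CS genes, 1 was held in CC by overlap of at least 1 bp and 0 by the stricter overlap, counted against the narrower peak's width. By RefSeq window 3 genes were held in CS and 2 in CC. The q-value limit and equal lengths keep fewer peaks by construction, and the RefSeq window is shorter. The overlap counts keep the same peaks, and the CS and CC peaks of Ephb6, Sema3d and Sema4f shared no base and those of Robo1 shared 2 bp.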
